A study of Mus musculus with 4 samples.

Results

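The opioid and endocannabinoid genes described here were the 3 opioid peptide precursors (Penk, Pdyn and Pnoc), the 4 opioid receptors (Oprm1, Oprd1, Oprk1 and Oprl1), the CB1 cannabinoid receptor Cnr1, and the endocannabinoid-degrading enzymes Faah and Mgll. They were chosen by name, as the probe sets whose platform annotation gives exactly 1 of these 10 symbols. Each gene had 1 such probe set, so 10 of the 35556 probe sets on the array were described, and no other probe set named a member beside other genes. RNA came from whole brains of adult C57BL/6J males on Mouse Gene 1.0 ST arrays, in a model of binge alcohol exposure at the equivalent of the third trimester. Ethanol pups had been injected subcutaneously with 20% ethanol in 0.15 M saline, as 2 doses of 2.5 g/kg given 2 hours apart on each of postnatal days 4 and 7, and control pups with the saline alone on the same days. By the labels both groups were weaned on day 25 and killed on day 60 (other days stand in the methods). Each array held RNA of 3 males, each from another litter, in equal amounts, and there were 2 arrays per group, called control 1, control 3, ethanol 2 and ethanol 4 after their titles. Because animals were pooled, the spread between arrays is that between pools.

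Opioid peptides are cut from larger precursor proteins and act on G-protein-coupled receptors that inhibit adenylyl cyclase, open inwardly rectifying potassium channels and reduce transmitter release. Enkephalins come from Penk, dynorphins from Pdyn and nociceptin from Pnoc. Endocannabinoids are lipids made on demand by the postsynaptic cell that act backwards on presynaptic CB1 receptors, and both systems are known for their part in reward and in the response to alcohol. Penk and Pdyn are best known in the brain from the striatum, and CB1 from the axon terminals of interneurons and of many excitatory neurons.

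For control 1 and ethanol 4 the labels disagree with themselves: their treatment entry names the opposite group from their title and source name, which set the groups below. The median log2 signal of the arrays was 6.61 and 6.51 for the controls against 6.33 and 6.38 for ethanol, and the median difference over all probe sets was -0.15, with 80.2% of them lower on the ethanol arrays. This displacement was close in size to the differences of the members. Each member is therefore described first from the deposited values and then after a quantile normalization of the 4 arrays made here. In that form the median difference was -0.0042. The limits used by the study were a change of 1.2-fold (0.26 on the log2 scale) and an unadjusted p under 0.05, here from limma, and a gene meeting both is called past the limits. All 8 neuron markers lay on every array above the 95th percentile of 170 vomeronasal receptor probe sets, used here as a reference for genes silent in brain. Gh and Prl, hormones of the pituitary, stood at 6.53 and 5.05 on ethanol 2, while on the other arrays both were at least 10.10. The 7 pituitary hormone genes summed to 360 on ethanol 2 and to between 6662 and 7339 on the others in linear signal.

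**Figure D1:**
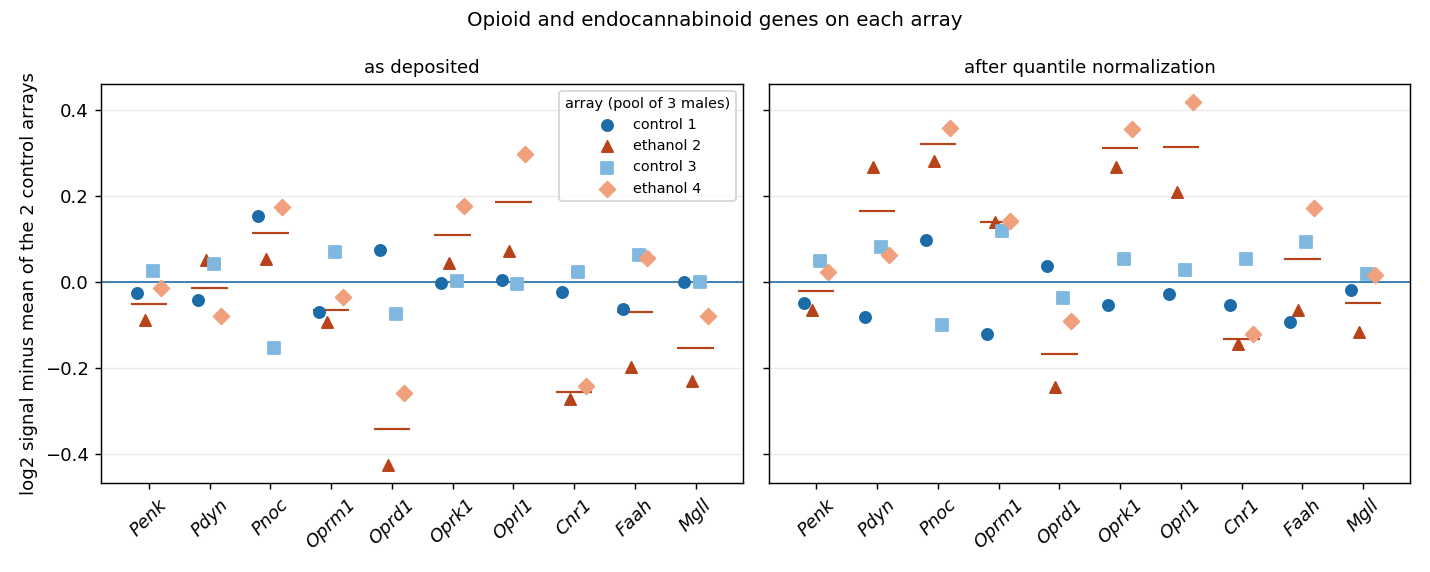
Log2 signal of each gene on each array, less the mean of the 2 control arrays (vertical axis), as deposited (left) and after quantile normalization (right). Blue symbols are control pools, orange and red symbols ethanol pools, and short red lines the ethanol mean. Oprd1 and Cnr1 lay below both controls on both ethanol arrays in each panel, and Oprk1 and Oprl1 above them.

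As deposited, 1 of the 10 genes was past the limits: the delta opioid receptor Oprd1, which was lower in ethanol-exposed brains by 0.34 on the log2 scale (1.27-fold). Across the whole array 17.9% met the limits on the lower side and 2.23% on the higher side. After quantile normalization Oprd1 was no longer past them, and 3 other genes were past them and higher, namely the nociceptin precursor Pnoc, the nociceptin receptor Oprl1 and the kappa receptor Oprk1. Their log2 differences were 0.31 to 0.32 (1.24-fold to 1.25-fold). In that form 5.71% of the array met the limits on the higher side and 5.87% on the lower. With each array centred on its median in place of quantile normalization, the 3 genes past the limits were the same and all higher, in a form where 9.09% of the array met the limits on the higher side and 3.91% on the lower. No member passed an adjusted p of 0.05 in limma in any of these forms. The unadjusted p from limma was under 0.05 for 2 of the 10 members as deposited, and for 7876 of all 35556 probe sets. After quantile normalization it was under 0.05 for 3 members and for 4845 of all probe sets. The count of genes past the limits thus turned on the scaling, and so did its direction. Over the 10 genes the median difference was -0.06 as deposited and 0.10 after quantile normalization, which is 0.0885 and 0.101 above the median of all probe sets.

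**Figure D2:**
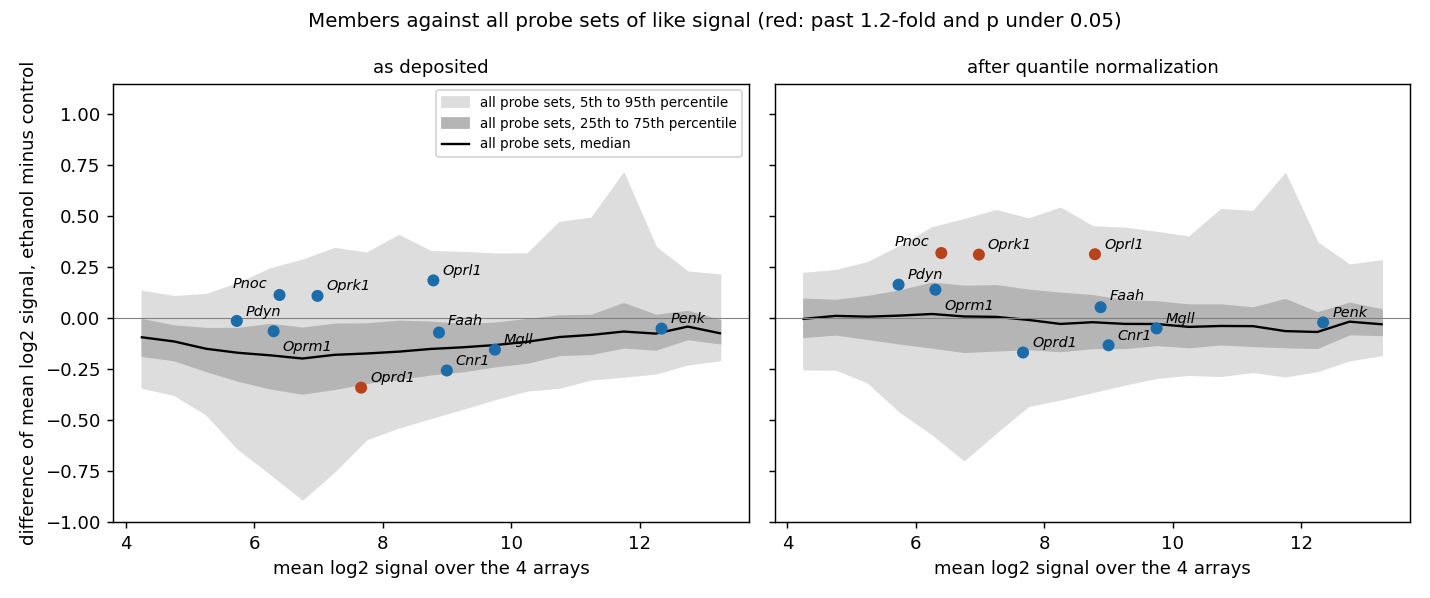
Difference of mean log2 signal, ethanol minus control (vertical axis), against mean log2 signal (horizontal axis) for the 10 genes, over grey bands for all probe sets (the quartiles, and the 5th to 95th percentile). Red points were past the limits. As deposited the black median line lay below 0 at every signal and was lowest between signals of 6 and 8, and after quantile normalization it ran close to 0.

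The displacement of the arrays depended on signal. Probe sets with a mean log2 signal of 6 to 7, where Pnoc, Oprm1 and Oprk1 lie, had a median difference of -0.19 as deposited. Those of 8 to 9, where Oprl1, Cnr1 and Faah lie, had -0.16, and those above 12, where Penk lies, had -0.06. The plot of difference by signal sets each gene against others of like signal.

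Among the precursors, Penk and Pdyn did not differ beyond the spread between pools, and Pnoc was past the limits only after the arrays were rescaled. Penk (probe set 10511363) had log2 signals of 12.34 and 12.39 on control 1 and control 3, against 12.28 on ethanol 2 and 12.35 on ethanol 4. Its groups overlapped. The difference was -0.05 (standard error 0.09, adjusted p = 0.732 from limma), with a 95% interval from -0.28 to 0.18, and it was -0.02 after quantile normalization. With arrays centred on their medians Penk turned to 0.16, where the median difference of all probe sets above 12 was 0.15. Pdyn (10487613) was dim, at 5.69 and 5.78 on the controls and 5.79 and 5.66 on the ethanol arrays. These signals were below the median of each array and below the 95th percentile of the vomeronasal receptors, 5.96 to 6.39, on all 4, so a change of Pdyn could hardly have been seen. Its difference was -0.01 as deposited (adjusted p = 0.942, limma) and 0.16 after quantile normalization (adjusted p = 0.565).

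Pnoc (10420853) had deposited log2 signals of 6.49 and 6.18 on control 1 and control 3, and of 6.39 and 6.51 on ethanol 2 and ethanol 4. The controls differed by 0.31 from each other, more than the groups did, whose difference was 0.11 (standard error 0.14, adjusted p = 0.622, limma). After quantile normalization the controls were at 6.33 and 6.14 and the ethanol arrays at 6.52 and 6.59, so the groups no longer overlapped. The difference was then 0.32 (standard error 0.10, adjusted p = 0.339), with a 95% interval from 0.04 to 0.60. Without control 3 it was -0.04 as deposited. Pnoc was above the vomeronasal reference on 3 of the 4 arrays, the exception being control 3. It had the widest range of the members after quantile normalization, 0.46, and of 13284 other probe sets those of Slc29a4 and Lhfpl3 had the pattern most like it over the 4 arrays, with root mean square differences of 0.0074 and 0.0078. Igf1, Tspan12 and Smim20 followed at 0.022 each. Pnoc was picked for this range, and with only 4 values such a search finds close matches in any case. A link between these genes and Pnoc was not tested.

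Penk and Pdyn mark striatal neurons, and 16 striatal markers had a summed linear signal of 11093 and 11182 on the control arrays and of 10009 and 10036 on the ethanol arrays. After quantile normalization the sums were 10565 and 11002 against 10382 and 10328. Of these 16 markers 3 passed the limits on the lower side as deposited, where 17.9% of all probe sets did. After quantile normalization 2 did, where 5.87% of all probe sets did. Furthest from 0 was Rarb, a retinoic acid receptor, at -0.55 and -0.40. Rasd2, a small GTPase of the striatum, was past the limits in both at -0.44 and -0.32, and the transcription factor Isl1 as deposited at -0.38. Isl1 was as dim as Pdyn and lay below the vomeronasal 95th percentile on all 4 arrays, so its difference is that of a signal hardly above the silent genes. The dopamine receptor Drd2 was at 0.00 and 0.11, and Tac1, the substance P precursor, at -0.03 and 0.04. The part of striatal content in the values of Penk and Pdyn was not tested. In bulk brain RNA, fewer cells of a type and less RNA per cell cannot be told apart.

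The 4 opioid receptors did not all lie on the same side. Oprd1 was lower on both ethanol arrays and Oprk1 and Oprl1 higher on both, in both forms of the data. The mu receptor Oprm1 was on neither side as deposited. After quantile normalization it was higher on both ethanol arrays, at 6.37 on each against 6.11 on control 1 and 6.35 on control 3. As deposited 52.7% of all probe sets were lower on both ethanol arrays than on both control arrays and 7.25% were higher. After quantile normalization these shares were 24.9% and 24.0%, so groups that do not overlap were common on these arrays. Of the 10 members 3 were lower and 2 higher in this sense as deposited (Oprd1, Cnr1 and Mgll against Oprk1 and Oprl1), and 2 lower and 4 higher after quantile normalization.

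The windows upstream of Oprd1 and Oprl1, the pair of members that moved furthest apart as deposited, are shown. The pair was picked by those values, and a link between promoter composition and the differences was not tested. Each is the 250 bases before the first start site that RefSeq gives on GRCm38.p6, at chr4:132144487-132144736 on the minus strand for Oprd1 and chr2:181714766-181715015 on the plus strand for Oprl1, 5′ to 3′, with CpG dinucleotides in capitals.
Oprd1: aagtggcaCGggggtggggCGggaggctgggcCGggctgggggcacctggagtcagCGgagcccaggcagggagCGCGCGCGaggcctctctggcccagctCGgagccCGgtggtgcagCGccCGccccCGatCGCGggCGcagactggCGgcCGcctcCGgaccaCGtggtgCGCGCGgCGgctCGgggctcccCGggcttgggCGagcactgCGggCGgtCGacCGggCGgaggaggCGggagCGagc
Oprl1: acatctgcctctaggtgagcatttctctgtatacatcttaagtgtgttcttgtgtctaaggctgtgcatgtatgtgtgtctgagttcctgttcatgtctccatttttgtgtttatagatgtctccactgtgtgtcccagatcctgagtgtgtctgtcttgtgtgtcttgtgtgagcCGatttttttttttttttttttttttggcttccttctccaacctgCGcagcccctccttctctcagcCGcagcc

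The Oprd1 window held 34 CpG dinucleotides, more than 96.5% of the 32851 such windows of all genes, and 80.0% of its bases were G or C. The Oprl1 window held 3, where the median of all windows was 6. On either strand the Oprd1 window held 4 matches to the GC box GGGCGG, found in 32.7% of all windows, and 1 to the E-box CACGTG, found in 6.02%. The Oprl1 window held neither and had 1 match to TATAAA, found in 12.4%. The cAMP response element TGACGTCA, in 1.55% of all windows, was in none of the 15 windows of the 7 members matched. The GC box, the E-box and the cAMP response element each hold a CpG dinucleotide, and a match describes letters only. By their most CpG-rich window, these 7 members fell in 2 groups. Oprd1, Cnr1 and Mgll had 30 or more CpG dinucleotides, and Pdyn, Oprm1, Oprl1 and Faah 9 or fewer. The other members, Penk, Pnoc and Oprk1, had no window, so these groups cannot be set against direction over all members. Over all probe sets of genes with such windows, the median difference after quantile normalization was -0.01 for genes with 30 or more and 0.01 for genes with 9 or fewer, as deposited it was -0.13 and -0.14, and with arrays centred 0.077 and 0.076.

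Oprd1 (10516852), the main receptor of the enkephalins, had log2 signals of 7.91 and 7.76 on control 1 and control 3, against 7.41 on ethanol 2 and 7.58 on ethanol 4. Both ethanol pools lay below both controls, ethanol 2 furthest. The difference was -0.34 (standard error 0.11, unadjusted p = 0.031, adjusted p = 0.199 from limma), with a 95% interval from -0.63 to -0.05. Relative to the median of all probe sets it was -0.19. After quantile normalization the signals were 7.79 and 7.71 against 7.51 and 7.66, still apart, and the difference was -0.17 (adjusted p = 0.486). As deposited Oprd1 was at -0.27 without control 1 and -0.26 without ethanol 2, neither with an unadjusted p under 0.05, and at -0.42 without control 3 or without ethanol 4, both past the limits. Pups of the groups came from the same litters, and a fit that pairs control 1 with ethanol 2 and control 3 with ethanol 4 took Oprd1 out of the calls, while the crossed pairing kept it.

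Oprl1 (10479685), the nociceptin receptor, had log2 signals of 8.70 and 8.69 on the controls and 8.77 and 8.99 on ethanol 2 and ethanol 4. The controls agreed within 0.0085 and the ethanol pools differed by 0.23 from each other. The difference was 0.19 (standard error 0.11, adjusted p = 0.357, limma) and 0.33 relative to the median of all probe sets. After quantile normalization the signals were 8.60 and 8.66 against 8.84 and 9.05, a difference of 0.31 (standard error 0.11, adjusted p = 0.343).

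Oprk1 (10344653), the receptor of the dynorphins, had a log2 signal of 6.93 in either control pool, against 6.97 on ethanol 2 and 7.11 on ethanol 4. Both ethanol pools were higher, ethanol 2 by little. The difference was 0.11 (standard error 0.09, adjusted p = 0.492, limma), and 0.31 after quantile normalization (standard error 0.09, adjusted p = 0.310), where the signals were 6.77 and 6.88 against 7.09 and 7.18. Oprm1 (10367546), the main target of morphine, had 6.26 and 6.40 on the controls against 6.24 and 6.30. It was at -0.06 as deposited (adjusted p = 0.694, limma) and at 0.14 after quantile normalization (adjusted p = 0.603). Oprm1 lay below the median of every array, and above the vomeronasal reference on 3 of the 4, the exception being control 1.

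With an array left out after quantile normalization, Pnoc, Oprk1 and Oprl1 kept their direction, and each of the 3 calls was lost in 2 or 3 of the 4 fits, which have fewer arrays. Without ethanol 4 none was past the limits, with Pnoc at 0.28, Oprk1 at 0.27 and Oprl1 at 0.21. Without control 1 Pnoc was past them at 0.42, and Oprk1 (0.26) and Oprl1 (0.29) were not. Without control 3 Oprk1 was past them at 0.37, and Oprl1 (0.34) and Pnoc (0.22) were not. Without ethanol 2, the pool low in pituitary transcripts, Oprk1 (0.36) and Oprl1 (0.42) were past them and Pnoc (0.36) was not. As deposited, leaving out ethanol 4 brought Oprl1 from 0.19 to 0.073 and Oprk1 from 0.11 to 0.043.

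A difference between genes on 1 array does not depend on a constant displacement of that array, although its level carries the affinity of each probe set and only its change between arrays can be read. Oprd1 minus Oprl1 was -0.79 and -0.93 on control 1 and control 3 and -1.36 and -1.42 on ethanol 2 and ethanol 4, so that Oprd1 fell relative to Oprl1 by 0.53 as deposited and by 0.48 after quantile normalization. Oprd1 minus Oprk1 was 0.98 and 0.83 on the controls against 0.44 and 0.47, a change of -0.45, and of -0.48 after quantile normalization. Pnoc minus Oprl1, the ligand precursor and its receptor, changed by -0.07 and 0.01 and its groups overlapped. Of the 45 pairs of members, 27 had groups that did not overlap in each form, and 23 in both. Pairs of other probe sets were not counted, and many of the 45 pairs share a gene. Whether 27 is more than other pairs would give was therefore not tested. Oprd1 and Oprl1 were the lowest and the highest member as deposited, so a wide change between them follows from the choice. The pairs named here were picked after their values were seen, so no test was made.

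**Figure D3:**
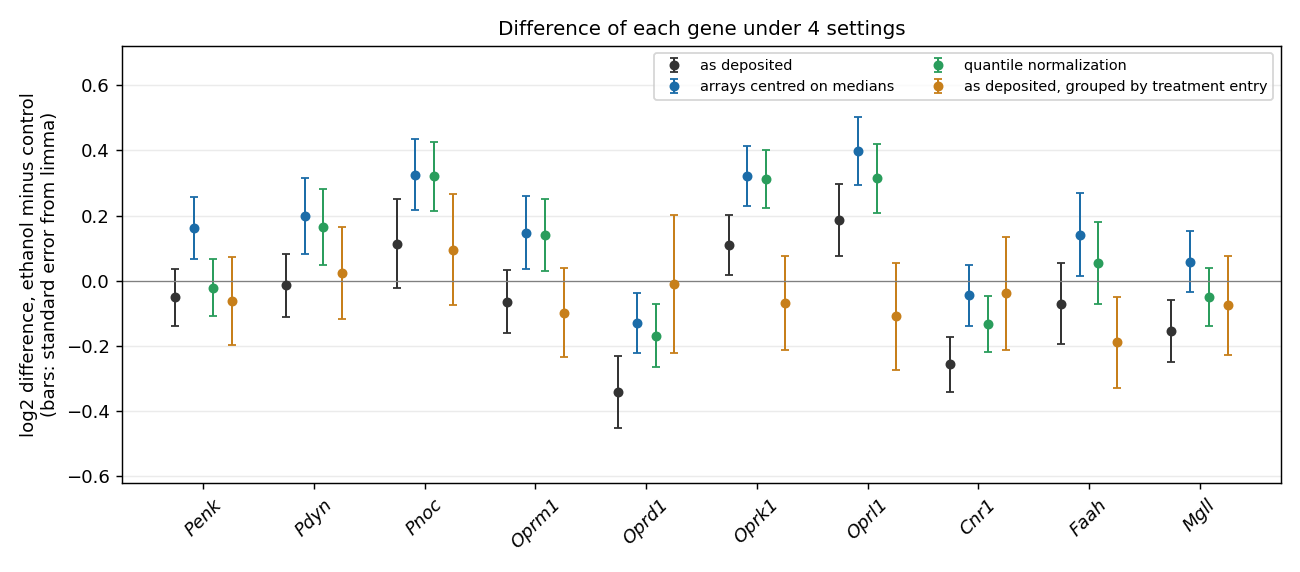
Log2 difference, ethanol minus control, of each gene (vertical axis; bars are standard errors from limma) as deposited, with arrays centred on their medians, after quantile normalization, and as deposited but grouped by the treatment entry. Oprd1 and Cnr1 were below 0 in all 4, Pnoc was above 0 in all 4, and Oprk1 and Oprl1 were above 0 in the 3 that group by title and below it in the other.

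All values above group the arrays by title. Under the grouping of the treatment entry, which sets control 1 and ethanol 2 against control 3 and ethanol 4, none of the 10 genes was past the limits. Oprl1 was then at -0.11, Oprk1 at -0.07 and Oprd1 at -0.01, with unadjusted p of 0.537, 0.654 and 0.968 in limma.

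In the endocannabinoid system, the CB1 receptor Cnr1 was lower on both ethanol arrays and short of the fold limit, the degrading enzyme Mgll was lower on both as deposited only, and the groups of Faah overlapped. Cnr1 (10503902) had log2 signals of 9.10 and 9.15 on the controls and 8.85 and 8.89 on the ethanol arrays. The pools agreed closely within each group. The difference was -0.26 (standard error 0.08, unadjusted p = 0.032, adjusted p = 0.199 from limma), which is 1.19-fold and just under the limit of 1.2-fold. Relative to the median of all probe sets it was -0.11, and after quantile normalization it was -0.13 (adjusted p = 0.529), with groups still apart.

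Mgll (10539894), which breaks down 2-arachidonoylglycerol, had log2 signals of 9.82 on both controls, 9.59 on ethanol 2 and 9.75 on ethanol 4. Both ethanol pools lay below the controls, with a difference of -0.15 (adjusted p = 0.374, limma) that was as large as that of the median probe set. After quantile normalization its groups overlapped and the difference was -0.05, with a 95% interval from -0.29 to 0.19. Faah (10515220), which breaks down anandamide, had 8.85 and 8.97 on control 1 and control 3 and 8.71 and 8.97 on ethanol 2 and ethanol 4. Its difference was -0.07 (adjusted p = 0.741, limma) and 0.05 after quantile normalization. Faah was low on control 1 and ethanol 2 and high on control 3 and ethanol 4, which is the division that the treatment entry gives. Grouped so, it was at -0.21 after quantile normalization (unadjusted p = 0.090, adjusted p = 1.00, limma).

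The other genes of both systems were taken from 3 lists, of whose 56 genes 53 were measured. As deposited 7 of the 53 were past the limits and lower and none was higher, in the form where 17.9% of all probe sets were lower. After quantile normalization 3 were lower and none higher, where 5.87% of all probe sets were lower and 5.71% higher. The median difference was -0.10 as deposited and -0.01 after quantile normalization, against -0.15 and -0.0042 for all probe sets.

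**Figure D4:**
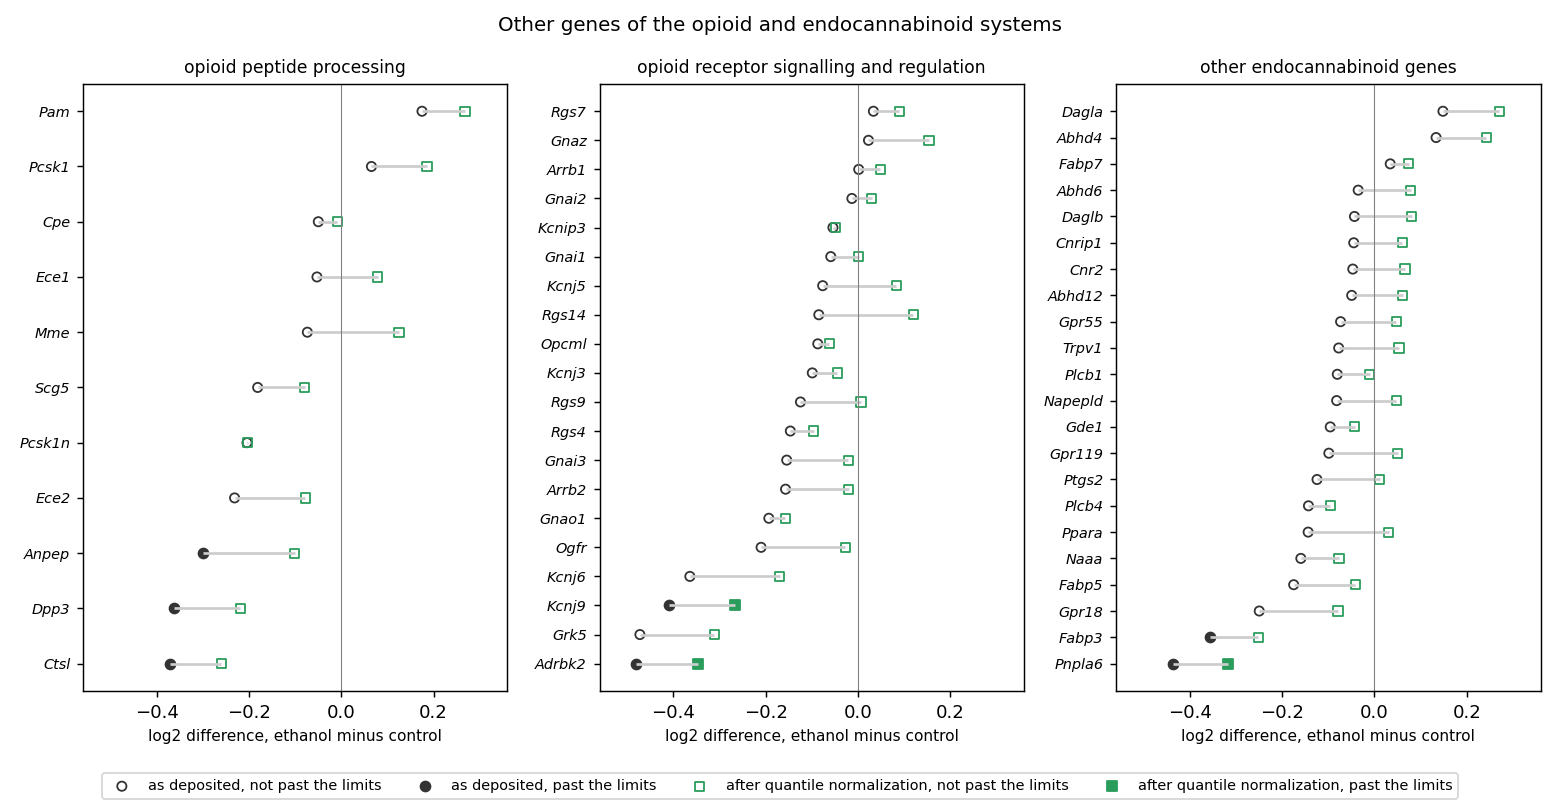
Log2 difference, ethanol minus control (horizontal axis), of the measured genes of the 3 lists, as deposited (circles) and after quantile normalization (squares). Filled symbols were past the limits. Rescaling moved most genes to the right, and Grk3 (drawn as Adrbk2), Kcnj9 and Pnpla6 were past the limits in both forms.

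Among 20 genes of opioid receptor signalling, 2 were past the limits and lower in both forms. Over all probe sets 17.9% were past them and lower as deposited, and 5.87% after quantile normalization. Grk3 (listed as Adrbk2), a kinase that phosphorylates activated G-protein-coupled receptors, had 8.55 and 8.52 on the controls and 8.08 and 8.04 on the ethanol arrays. It differed by -0.48 (standard error 0.08, adjusted p = 0.164, limma) and by -0.35 after quantile normalization. Kcnj9, a subunit of the potassium channels that opioid and CB1 receptors open, was at -0.41 (standard error 0.08, adjusted p = 0.171) and -0.27. The other channel subunits of the list were not past the limits. Of 11 genes of peptide processing, 3 passed the limits on the lower side as deposited and none after quantile normalization. These were the lysosomal protease Ctsl at -0.37, and Dpp3 and Anpep, peptidases that can degrade enkephalins, at -0.36 and -0.30. Anpep was dim, at 6.24 on control 3 and 6.01 on ethanol 4, where the vomeronasal 95th percentile was 6.39 and 6.14.

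Among 22 other endocannabinoid genes, Pnpla6 and the fatty acid carrier Fabp3 passed the limits on the lower side as deposited, at -0.44 (standard error 0.09, adjusted p = 0.171, limma) and -0.36, and only Pnpla6 after quantile normalization, at -0.32. Pomc, the precursor of beta-endorphin and of pituitary hormones, was listed with the pituitary genes. Its log2 signals were 5.95 and 6.09 on the controls and 5.48 and 5.50 on the ethanol arrays, below the vomeronasal 95th percentile on all 4. It differed by -0.53 (standard error 0.09, adjusted p = 0.165, limma) and by -0.35 after quantile normalization, and was past the limits in both forms. Unlike Gh and Prl, Pomc was low on both ethanol arrays.

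Markers of other cell types were counted in both forms. Shares of the whole array past the limits were 17.9% lower and 2.23% higher as deposited. After quantile normalization they were 5.87% and 5.71%. Of neuron, interneuron, astrocyte and microglia markers, 0 of 8, 0 of 9, 0 of 7 and 0 of 8 were past the limits in either form. The synaptic protein Snap25 was at 0.02 as deposited, the neuronal tubulin Tubb3 at -0.40, the GABA transporter Slc32a1 at -0.28 and the interneuron protein Calb2 at 0.02. Of the neuron markers 6 were below 0 as deposited and 6 after quantile normalization, and of the interneuron markers 8 and 7. Of the astrocyte markers 4 were below 0 as deposited and 2 after quantile normalization. They ran as deposited from -0.26 (S100b) to 0.08 (Aqp4), with Gja1 at 0.05. Of the microglia markers 7 were below 0 as deposited and 2 after quantile normalization. They ran as deposited from -0.24 (C1qa) to 0.12 (Tmem119), with Aif1 at -0.01. All 6 oligodendrocyte markers were below 0 in both forms, with medians of -0.19 and -0.14. Over all probe sets 80.2% and 51.0% were below 0. For 5 of the 6 both ethanol arrays lay below both controls in each form, against 52.7% and 24.9% of all probe sets. Only Cnp, a myelin enzyme, was past the limits, lower in both forms at -0.28 and -0.29. The summed linear signal of the 6 ran from 15221 to 16353 on the controls and from 13613 to 13821 on the ethanol arrays. After quantile normalization it was 16021 and 15326 against 13738 and 14111. Of 8 choroid plexus and ependyma markers 8 were below 0 as deposited and 7 after quantile normalization. Of 5 endothelial and blood markers 5 were below 0 as deposited and 3 after quantile normalization. Kl (-0.42) of the former and Pecam1 (-0.37) and Tek (-0.29) of the latter were past the limits as deposited. None of these genes was past them after quantile normalization. The part of these cell types in the members' values was not tested.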

How the data were processed

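RNA of pooled whole brains was measured on 4 Mouse Gene 1.0 ST arrays. The authors summarized the probes in Partek Genomics Suite with the RMA algorithm, quantile normalization and a GC adjustment, and deposited log2 values of 35556 probe sets. The submitters' notes give Partek version 6.6, and the methods another. The deposited medians and maxima differ between arrays, which values put on a common distribution as the last step would not show. How the deposited values came to differ in this way was not tested, and the choice of normalization can move a small difference either way.

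Gene names come from the platform annotation, in which 21789 probe sets name 1 gene. All 35556 probe sets were fitted with limma 3.58.1 in R 4.3.3 (two-sided, 2 residual and 2.57 prior degrees of freedom), with Benjamini-Hochberg adjustment over all of them. The fit was tested on simulated data. The study's limits, 1.2-fold and p of 0.05, follow its methods. Control and ethanol pups were matched within litters. Nothing in the labels says which ethanol pool matches which control pool, so no pairing was assumed. Deviations from group means correlated at 0.0716 for 1 pairing and -0.0716 for the other. With 2 arrays per group these must be equal and opposite, so they do not show whether the pools were paired. Fits with either pairing are given below.

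A listed gene with several probe sets of its own is represented by the brightest. Named are all members, and from each other list up to 4 genes past the limits, or else the 2 that differed most, both ranked relative to the median of all probe sets. S100b, C1qa, Drd2, Tac1, Gh and Prl were named after their values were seen. The members and lists were chosen with earlier results of these data known. Promoter windows come from RefSeq on GRCm38.p6. Probe sets are given without coordinates, since no build is named for them. Alternatives covered scaling, grouping, arrays left out, pairing, signal, trend, test and fold limit. The number of arrays limits the precision.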

Additional observations from a re-analysis of the deposited data

How the results depend on the processing

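Members past the limits were 0 higher and 1 lower as deposited, and 3 higher and 0 lower both with arrays centred on their medians and after quantile normalization. They were 0 lower when grouped by the treatment entry (also after quantile normalization), by the methods' test (an ANOVA per probe set) and at 1.5-fold. Leaving out 1 array gave 0 to 1 lower, and after quantile normalization 0 to 2 higher and 0 lower. Without control 1 or ethanol 2 there was none lower. Over all probe sets the 794 higher became 3231 when centred, 2030 after quantile normalization, 326 by the treatment entry, 272 by the methods' test and 405 at 1.5-fold. The 6369 lower became 1392, 2086, 244, 2882 and 1289 in the same order, and leaving out 1 array gave 713 to 969 higher and 3485 to 6458 lower, with 3485 without control 1 and 3499 without ethanol 2. Of the wider lists, 0 higher became 3 when centred, and 7 lower became 1 when centred, 3 after quantile normalization, and 0 by the treatment entry and at 1.5-fold. Leaving out 1 array gave 0 to 1 higher and 5 to 10 lower. The cause of these changes was not tested.

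Of the 10 members 8, all but Oprd1 and Cnr1, turned direction in at least 1 setting, among them Oprk1 and Oprl1 by the treatment entry. Centred, Penk was at 0.16, Pdyn at 0.20, Oprm1 at 0.15, Faah at 0.14 and Mgll at 0.058. In that form the median difference over all probe sets was 0.066, and 35.8% of them were lower. After quantile normalization Pdyn was at 0.16, Oprm1 at 0.14 and Faah at 0.054. By the treatment entry Pdyn was at 0.024, Oprk1 at -0.068 and Oprl1 at -0.11, and with quantile normalization as well at 0.021, -0.098 and -0.13. Leaving out 1 array, the lowest and highest differences as deposited were -0.088 and -0.014 for Penk, -0.078 and 0.052 for Pdyn, -0.040 and 0.27 for Pnoc, -0.13 and 0.0049 for Oprm1, -0.20 and 0.056 for Faah, and -0.23 and -0.078 for Mgll. After quantile normalization, Penk was at 0.022 without ethanol 2 and 0.029 without control 3, Pdyn at 0.083, 0.062, 0.25 and 0.27 without control 1, ethanol 2, control 3 and ethanol 4, Oprm1 at 0.020 without control 1 and up to 0.26 without control 3, Faah at 0.17 without ethanol 2 and 0.15 without control 3, and Mgll at 0.016 without ethanol 2. With any 1 array left out, Oprd1 and Cnr1 stayed below 0 and Oprk1 and Oprl1 above it in both forms. As deposited these ranged from -0.42 to -0.26 for Oprd1, -0.28 to -0.23 for Cnr1, 0.043 to 0.18 for Oprk1 and 0.073 to 0.30 for Oprl1. Cnr1 was at -0.045 when centred and -0.038 by the treatment entry. On the only pair of arrays whose labels all agree, control 3 and ethanol 2, Penk was at -0.11, Oprm1 at -0.16, Cnr1 at -0.29, Faah at -0.26, Oprd1 at -0.35, Pnoc at 0.21, Oprk1 at 0.041 and Oprl1 at 0.077, without a test. An intensity trend and a minimum mean log2 signal of 5 moved no count of calls by over 1.5 times. Quantile normalization combined with the treatment entry, or with an array left out, was chosen after seeing the data.

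With control 1 paired to ethanol 2 and control 3 to ethanol 4 as a replicate block, 0 members were past the limits, and with the crossed pairing 1, Oprd1, was.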
